A study of Bos taurus with 16 samples.

Results

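Of the 27393 loci in the deposited read-count table of bovine oocytes and embryos, 8 were examined here: the cholesterol synthesis genes HMGCS1, FDPS, FDFT1, SQLE, LSS, CYP51A1 and DHCR7, and their regulator INSIG1. They were chosen by name, each name has 1 locus in the table, and all 8 were found. The 16 samples were single oocytes matured in vivo and single embryos developed in vivo, with 2 samples at each of 8 stages: mature oocytes (MII), 2-, 4-, 8- and 16-cell embryos (2C, 4C, 8C, 16C), early morulae, called 32-cell embryos in the study (32C), compact morulae (CM) and blastocysts (BL). The labels give no treatment. Neither the parents nor the breed of the samples were given, so p-values measure only the spread between these single oocytes and embryos.

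Cholesterol is built from acetyl-CoA by a long chain of enzymes. The first part, the mevalonate steps, leads to farnesyl diphosphate, and the second part joins farnesyl units into squalene, closes the sterol rings and trims them to cholesterol. When sterols are plentiful, the INSIG proteins hold the SCAP-SREBP complex in the endoplasmic reticulum, and when sterols are scarce SREBP is released, cut by the MBTPS proteases and activates genes of synthesis and uptake. Oocytes of mammals are thought to rely in part on sterol made by the surrounding cumulus cells, and the early embryo starts from RNA stored in the oocyte until its own genome becomes active. In cattle in vivo the study places this embryonic genome activation (EGA) between the 4C and 8C stages, so that MII, 2C and 4C samples (6) came before it and 8C, 16C, 32C, CM and BL samples (10) after it.

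Values are normalised read counts, which are reads divided by a size factor of the sample and not by gene length, so levels were compared within a gene only. Between 607672 and 3379426 reads per sample could be recovered from the table, and a floor of 3 reads was worth between 1.09 and 5.40 normalised reads. Floors cover counting error only, because amplified molecules were not told apart. One locus took 27.0% of the reads of 2C replicate 2, more than in any other sample. Among the markers of oocytes, 6 of 7 had reads before EGA and BMP15 was at 0 in all samples. Their summed level ran from 3825 to 24379 before EGA and from 5.07 to 1686 after it. The highest sum after EGA was in 8C replicate 2, where the linker histone gene H1FOO still had 1606 normalised reads against 30.6 in 8C replicate 1.

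HMGCS1, the enzyme that makes HMG-CoA early in the pathway, had the most reads of the 8 genes, 1977 before and 206 after EGA. Its normalised read counts were 264 and 307 at MII, 189 and 297 at 2C, and 139 and 160.0 at 4C. They were 16.2 and 11.5 at 8C, 35.9 and 17.8 at 16C, 3.86 and 7.04 at 32C, 9.97 and 3.75 at CM, and 54.8 and 84.0 at BL. All samples before EGA were above all samples after it, and both blastocysts were above every sample from 8C to CM. In the order of the stages, only the neighbours MII and 2C, and CM and 32C, overlapped. The mean fell from 226 ± 72.7 (SD, n = 6) before EGA to 24.5 ± 26.3 (SD, n = 10) after it, a 9.24-fold difference.

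FDPS, which makes farnesyl diphosphate at the branch point of the pathway, followed another course. Its values were 21.2 and 22.3 at MII, 12.7 and 32.8 at 2C, and 30.4 and 26.0 at 4C. After EGA they were 0 and 6.88 at 8C, 6.53 and 16.2 at 16C, 6.18 and 4.69 at 32C, 15.5 and 2.81 at CM, and 38.6 and 42.8 at BL. The blastocysts were the highest of all samples, and the samples from 8C to CM overlapped with 2C replicate 1 alone of those before EGA. FDPS has processed pseudogenes in mammals, and how reads that fit several places were counted is not given in the sources used here, so its level is uncertain.

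FDFT1, the squalene synthase that commits farnesyl units to sterols, had 16.6 and 33.0 at MII, 20.6 and 7.30 at 2C, and 6.46 and 5.69 at 4C. From 8C on its values were 3.60 and 0 at 8C, 5.44 and 3.23 at 16C, 5.41 and 7.43 at 32C, 14.4 and 7.51 at CM, and 25.4 and 6.34 at BL. Samples before and after EGA overlapped widely, and the lowest mean was that of 8C. The replicates of MII, 2C, CM and BL were far apart.

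SQLE, the squalene epoxidase and a rate-limiting enzyme of the sterol steps, was low in oocytes, where HMGCS1 was high. It had 0.923 and 0 at MII, 3.17 and 0 at 2C, and 5.53 and 10.6 at 4C. Its values were 1.80 and 3.44 at 8C, 15.2 and 4.85 at 16C, 22.4 and 19.5 at 32C, 19.9 and 1.88 at CM, and 25.4 and 19.0 at BL. Oocytes and 2C embryos were near or under the floor of 3 reads, the highest values came at 32C and later, and CM replicate 2 was as low as the 8C samples. SQLE had 24 reads before and 157 after EGA.

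LSS, which closes the sterol rings, had the fewest reads of the members after EGA, with 51 before and 15 after it. It had 0 and 1.06 at MII, 15.8 and 6.57 at 2C, and 9.22 and 1.62 at 4C. From 8C to CM it lay between 0 and 2.74, and it had 6.09 and 0 at BL. The 2C stage was the highest, and 6 of the 10 samples after EGA had no read.

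CYP51A1, the lanosterol demethylase, had 26 reads before and 50 after EGA, and like FDPS it may share reads with pseudogenes, so its level is uncertain. Its values were 2.77 and 2.13 at MII, 4.75 and 2.55 at 2C, 4.61 and 2.44 at 4C, and 0 in both 8C embryos. They were then 2.18 and 1.62 at 16C, 0.773 and 1.17 at 32C, 3.32 and 14.1 at CM, and 11.2 and 22.2 at BL. The 8C stage was the lowest, and the highest values were those of the blastocysts and of CM replicate 2, which lay between them.

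DHCR7, which catalyses a last step to cholesterol, had 2.77 and 3.19 at MII, 1.58 and 0 at 2C, and 0 and 0.812 at 4C, with 9 reads in all before EGA. Later it had 1.80 and 0 at 8C, 6.53 and 0 at 16C, 3.86 and 1.17 at 32C, 5.54 and 3.75 at CM, and 10.1 and 22.2 at BL. Both blastocysts were above every other sample. All other stages overlapped with their neighbours in the order of levels.

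INSIG1, the sterol-sensing brake on SREBP activation and itself a target of SREBP, had 79.4 and 74.5 at MII, 93.4 and 54.0 at 2C, and 63.6 and 47.9 at 4C. It fell to 0 and 4.59 at 8C, 3.27 and 0 at 16C, 0 and 5.47 at 32C, 1.11 and 0 at CM, and 8.12 and 1.58 at BL. The 6 samples before EGA were all far above the 10 after it, and within each period every stage overlapped with its neighbour in the order of levels. INSIG1 had 550 reads before and 31 after EGA, 14 of the latter in 32C replicate 2. Its mean was 68.8 ± 16.9 (SD, n = 6) before against 2.41 ± 2.85 (SD, n = 10) after. No fold is given, because most samples after EGA were at or under the floor of 3 reads.

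**Figure D1:**
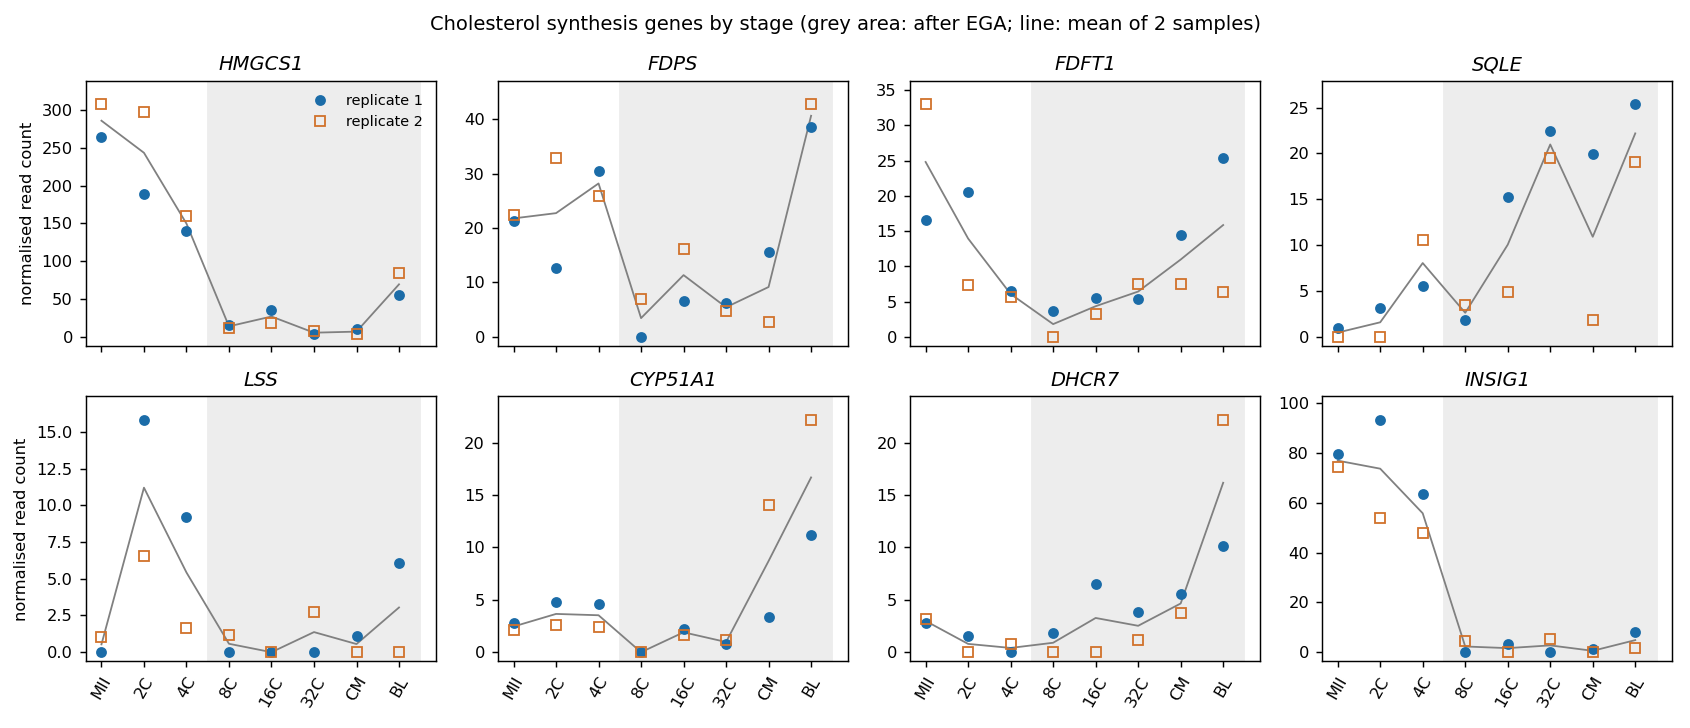
Normalised read counts (y axis, linear, own scale for each gene) of the 8 genes at the 8 stages (x axis), with 1 point per oocyte or embryo, a line through the mean of 2 samples and a grey area for the stages after EGA. HMGCS1 and INSIG1 dropped after 4C, and SQLE was highest at 32C and BL. All 8 genes had a higher mean at BL than at 8C, with overlapping replicates for LSS and INSIG1.

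Did the genes differ between stages at all? By limma on log2(normalised read count + 1) with Benjamini-Hochberg adjustment over 9670 loci, 5 of the 7 members with enough reads to be tested differed between stages, against 66.7% of all loci tested. These were HMGCS1 (adjusted p = 4.8e-06), INSIG1 (adjusted p = 0.00032), CYP51A1 (adjusted p = 0.00833), SQLE (adjusted p = 0.0129) and FDPS (adjusted p = 0.0239). FDPS did not pass by edgeR (adjusted p = 0.0666), nor without 4C replicate 1 (0.0595) or either blastocyst (0.0685 and 0.0693). DHCR7 (adjusted p = 0.0532) and FDFT1 (adjusted p = 0.0608) did not pass, and LSS had too few reads. FDFT1 passed without 8C replicate 1 (0.0221) or BL replicate 2 (0.0458), and DHCR7 without 8C replicate 1 (0.044), 16C replicate 1 (0.0187) or 16C replicate 2 (0.0244), with scaling to total reads (0.0289) and with a pseudocount of 5 (0.0221). The share of members that passed was near that of all loci.

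Across EGA, 2 of the 5 members tested were lower after it and 1 was higher, where 29.9% of 6910 loci were lower and 36.9% higher. This comparison pools the stages of each period. The spread behind its p-values and standard errors therefore also holds differences between those stages. INSIG1 fell by 4.80 on the log2 scale (SE 0.54, adjusted p = 1.2e-07, limma with Benjamini-Hochberg adjustment), and HMGCS1 fell by 3.72 (SE 0.55, adjusted p = 5.1e-06). SQLE rose by 1.87 (SE 0.66, adjusted p = 0.0163), from a mean of 3.36 ± 4.13 (SD, n = 6) to 13.3 ± 9.31 (SD, n = 10). No fold is given for SQLE, because 4C replicate 2 holds much of the earlier total. The call of SQLE was lost by edgeR (adjusted p = 0.0508) and without MII replicate 2 (0.0522) or 2C replicate 2 (0.0527). Log2 changes of the main fits are on the log2(value + 1) scale, which understates the change of genes with few reads. Changes by edgeR, by DESeq2 or with another pseudocount are on other scales. Ranges over the alternatives hold these too.

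FDPS gave -1.39 (SE 0.63, adjusted p = 0.0577) and FDFT1 -0.99 (SE 0.58, adjusted p = 0.135) in the same limma comparison. FDPS passed with TMM factors (adjusted p = 0.0474) and without BL replicate 1 (0.0246) or BL replicate 2 (0.0209). The other 3 members had too few reads here. The median change of the 5 members was -1.39 and that of all loci tested 0.23. The latter depends on the scaling and was 0.67 when values were scaled to total reads, and HMGCS1, INSIG1 and SQLE kept their directions under each scaling.

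HMGCS1 and INSIG1 were the members whose samples before EGA all lay above those after it, as 14.1% of the loci tested did. The summed level of 8 markers of cumulus and granulosa cells was also lower after EGA, with 1259 to 2625 before and 406 to 1043 after it. Most of that sum came from STAR, with 1075 to 2282 before and 406 to 1004 after EGA. The other markers did not all move one way. HAS2 had 98.1 to 367 before and 0 to 21.8 after EGA, FSHR 1.82 to 22.3 and then 0, PTX3 0.730 to 3.17 and then 0, and CYP19A1 7.12 to 32.3 and then 0 to 16.1. HSD3B1 went the other way, from 0 to 4.61 before EGA to 35.5 and 58.6 at BL, TNFAIP6 had 5 reads, all after EGA, and AMH was at 0 in all samples. Of the sperm markers, PRM1, ODF1 and AKAP4 had no read in any sample and TNP1 none before EGA. The part of cumulus cells and of stored oocyte RNA in the changes of HMGCS1 and INSIG1 was not tested. With whole oocytes and embryos as samples, fewer cells of a type and less RNA per cell cannot be told apart.

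The fall was seen at the step from 4C to 8C, where 4 of 7 members were lower and none higher, against 19.1% of loci lower and 17.7% higher. HMGCS1 fell by 3.36 on the log2 scale (SE 0.60, adjusted p = 0.000771, limma with Benjamini-Hochberg adjustment), with a 10.8-fold higher mean at 4C. INSIG1 fell by 4.57 (SE 1.08, adjusted p = 0.00463), from 69 and 59 reads at 4C to 0 and 4 at 8C. FDPS fell by 3.38 (SE 0.94, adjusted p = 0.0121), from 33 and 32 reads to 0 and 6. With so few reads at 8C, no fold of the means is given for these 2 genes. HMGCS1 passed under all 25 alternatives run, and INSIG1 under 24, failing without 8C replicate 1 (-3.33). A fit between stages that leaves out a sample has 1 sample at its stage, so the spread comes from the other stages.

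FDPS and CYP51A1 rested on less. The call of FDPS was lost by edgeR (adjusted p = 0.0539) and without 4C replicate 1 (0.0774), 4C replicate 2 (0.0596) or 8C replicate 1 (0.152), where its change was -1.89. CYP51A1 gave -2.13 (SE 0.77, adjusted p = 0.0414), from 8 reads in the 4C embryos to none in the 8C embryos. It passed in 8 of 25 alternatives, with adjusted p between 0.0218 and 0.215, and both stages were near or under the floor of 3 reads per sample, so no fold is given. FDFT1 gave -1.72 (adjusted p = 0.147), SQLE -1.30 (adjusted p = 0.315) and DHCR7 0.31 (adjusted p = 0.825). Without 8C replicate 1, FDFT1 passed (adjusted p = 0.048). The median of the 7 members was -2.13 and that of all loci -0.08. 8C replicate 2, the 8C sample with the most H1FOO left, held all the 8C reads of INSIG1 and FDPS. Leaving it out could therefore only enlarge their falls. The change of CYP51A1, at 0 in both 8C embryos, stayed at -2.13. That fit has 1 sample at 8C, and its spread comes from the other stages.

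Before this step, from MII to 2C, none of 7 members passed by limma, and none had an unadjusted p under 0.05 by limma, edgeR or DESeq2, while 1.42% of all loci passed. The changes were -1.31 (SE 0.96) for DHCR7, -0.87 (SE 0.90) for FDFT1, 0.56 (SE 0.99) for SQLE, 0.40 (SE 0.77) for CYP51A1, -0.26 (SE 0.60) for HMGCS1, -0.11 (SE 1.08) for INSIG1 and -0.08 (SE 0.94) for FDPS. LSS had too few reads for the test, and with no filter it gave 2.97 (unadjusted p = 0.0138, adjusted p = 0.225). With standard errors of this size, changes of several-fold would not have been detectable.

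Did the genes return at the blastocyst? At the step from CM to BL, 1 of 7 members passed, where 2.92% of loci were higher. HMGCS1 rose by 3.25 (SE 0.60, adjusted p = 0.00456, limma with Benjamini-Hochberg adjustment), from 9 and 4 reads in the compact morulae to 54 and 53 in the blastocysts. Its call was lost without CM replicate 2 (adjusted p = 0.101) or BL replicate 2 (0.0839). FDPS gave 2.39 (adjusted p = 0.187), INSIG1 1.74 (adjusted p = 0.435), SQLE 1.57 (adjusted p = 0.444), DHCR7 1.53 (adjusted p = 0.444), CYP51A1 1.06 (adjusted p = 0.525) and FDFT1 0.28 (adjusted p = 0.931). The median of the 7 was 1.57 and that of all loci 0.11.

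A comparison of BL with the mean of the 4 stages from 8C to CM, added after the values were seen, used 8 samples for the lower level. Of the 7 members, 3 were higher at BL and none lower, where 6.81% of loci were higher. HMGCS1 rose by 2.58 (SE 0.47, adjusted p = 0.00262) and its mean was 5.23-fold higher, FDPS by 2.71 (SE 0.75, adjusted p = 0.029) and 5.53-fold, and CYP51A1 by 2.69 (SE 0.61, adjusted p = 0.0112). No fold is given for CYP51A1, because CM replicate 2 alone, at 14.1, holds most of its level from 8C to CM. DHCR7 gave 2.41 (SE 0.76, adjusted p = 0.0549), with 24 reads from 8C to CM, and did not pass. It passed without 8C replicate 1 (0.0362) or 16C replicate 1 (0.0225), with scaling to total reads (2.58, adjusted p = 0.0405) and with a pseudocount of 5 (1.44, adjusted p = 0.0121). The median of the 7 members was 2.41 and that of all loci 0.15.

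Each of these 3 calls depended on the blastocysts. Without BL replicate 2, HMGCS1 (adjusted p = 0.101), CYP51A1 (0.215) and FDPS (0.268) no longer passed, and without BL replicate 1 FDPS did not (0.152). FDPS also narrowly missed the threshold without 16C replicate 1 (0.0516), 32C replicate 1 (0.0501) or 32C replicate 2 (0.051). Markers of the trophectoderm, the outer layer that a blastocyst forms, summed to 1241 and 1330 at BL and to at most 362 from 8C to CM. KRT8 and KRT18 made up most of the sum, and CDX2, a defining marker, had 1 read in all 16 samples. TFAP2C overlapped between these stages, with 205 and 152 at BL and 73.4 to 251 from 8C to CM. The part of this new cell layer in the blastocyst values was not tested.

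**Figure D2:**
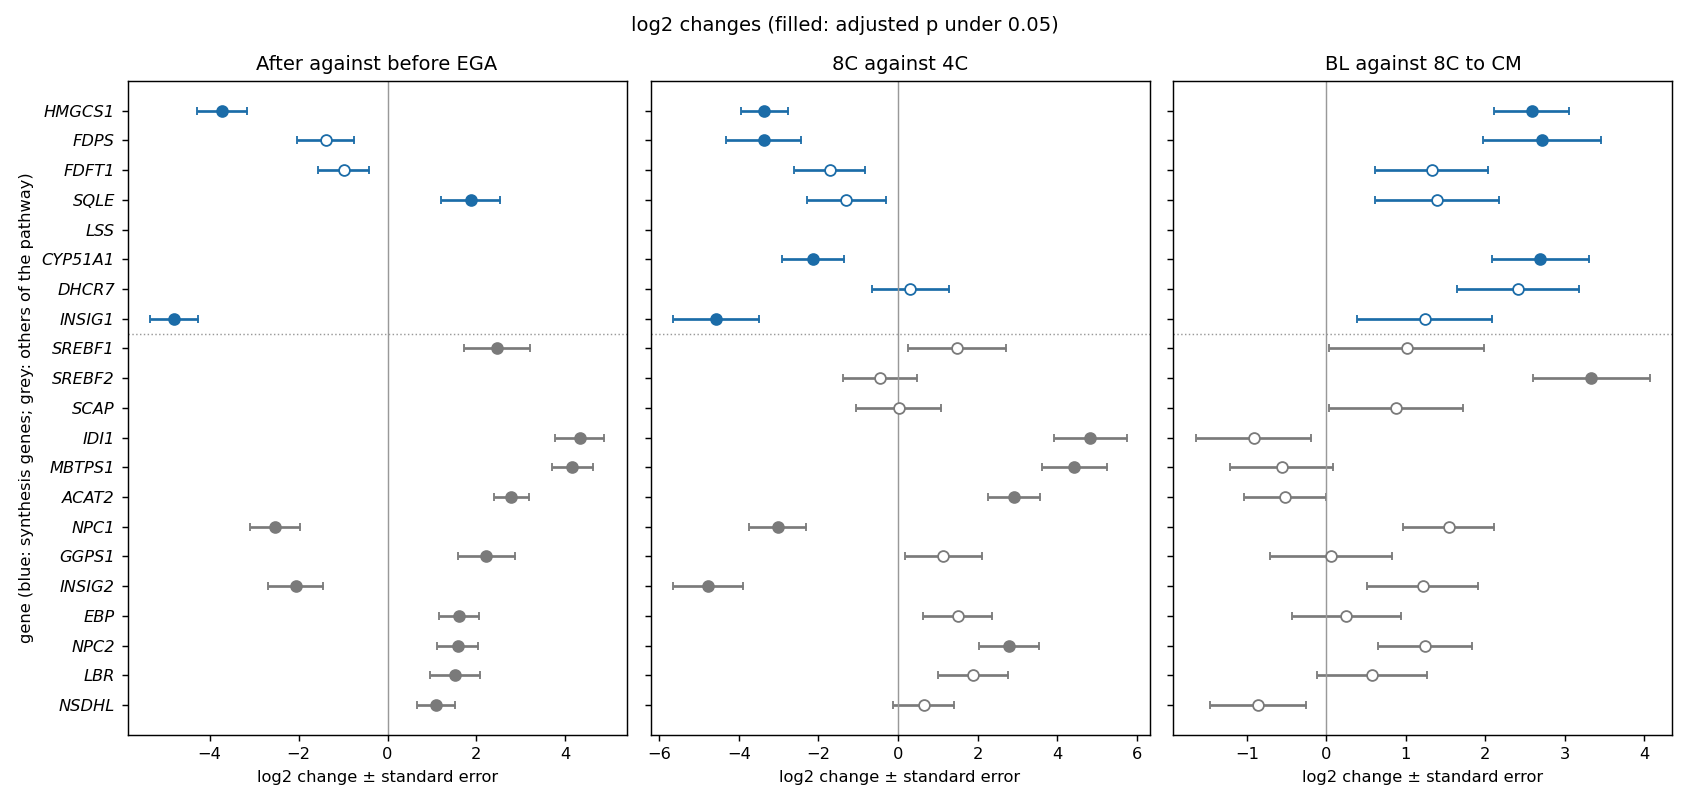
log2 change with its standard error (x axis) of the 8 synthesis genes (blue) and 13 other pathway genes (grey) in 3 comparisons, on the log2(normalised read count + 1) scale, where filled points passed an adjusted p of 0.05 and genes with too few reads have no point. HMGCS1 and INSIG1 lie left of 0 after EGA while IDI1 and MBTPS1 lie right of it, and HMGCS1, FDPS, CYP51A1 and SREBF2 are filled right of 0 at BL.

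Other genes of the pathway were tested in the same way. Of 26 listed genes of synthesis, control, uptake and storage, 25 were found, and of 14 tested across EGA 9 were higher after it and 2 lower, where 36.9% of all loci were higher and 29.9% lower. Their median change was 1.55, against 0.23 for all loci. Among the mevalonate steps, the 3 tested were all higher: ACAT2, IDI1 and GGPS1. Among the sterol steps 3 of 5 were higher, which were LBR, EBP and NSDHL. MSMO1 (-0.59) and TM7SF2 (-0.96) did not pass. From 4C to 8C, 0 of 6 sterol-step genes tested passed. SC5D, a sterol desaturase with too few reads for the test across EGA, passed it with no filter (1.87, limma adjusted p = 0.00488). MSMO1, TM7SF2 and SC5D were named after their values were seen. Among the control genes 2 of 3 were higher and 1 lower.

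IDI1, the isomerase that supplies FDPS, had 0 to 6.46 before EGA and 14.1 to 113 after it, with a median of 46.1 in the 10 later samples. All samples after EGA were above all samples before it, as 16.0% of the loci tested were. It rose by 4.32 (SE 0.55, adjusted p = 6.9e-07, limma with Benjamini-Hochberg adjustment), from 19 reads to 477, and by 4.83 from 4C to 8C (SE 0.92, adjusted p = 0.00116), the step at which HMGCS1 and FDPS fell. ACAT2, which makes acetoacetyl-CoA for HMGCS1, rose by 2.79 (SE 0.38, adjusted p = 2.0e-06), 6.97-fold in the means. GGPS1, which draws on farnesyl diphosphate for other products, rose by 2.22 (SE 0.64, adjusted p = 0.00454) but did not pass by edgeR (adjusted p = 0.164) or DESeq2 (0.0606). At 4C it had 8.30 and 19.5, within its range after EGA (6.53 to 32.1). Its change from 4C to 8C did not pass by limma (1.14, adjusted p = 0.372).

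EBP, a sterol isomerase, rose by 1.61 across EGA (SE 0.45, adjusted p = 0.00315). Between the 8 stages, EBP and NSDHL did not pass by limma (adjusted p = 0.104 and 0.169). LBR, a sterol reductase and lamin receptor, gave 1.51 (SE 0.56, adjusted p = 0.0211). It was not called by edgeR (adjusted p = 0.105) or without 2C replicate 1 (0.0508) or 2C replicate 2 (0.0808). Its values at MII, 30.5 and 19.1, lay within its range after EGA (8.44 to 61.3). NSDHL, a sterol dehydrogenase, gave 1.08 (SE 0.42, adjusted p = 0.0288) and was not called by edgeR (0.0782) or without any of 4 samples, MII replicate 2, 2C replicate 1, 4C replicate 2 and 32C replicate 1 (0.0505 to 0.0755).

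In the control group, MBTPS1, the first protease that cuts SREBP, rose by 4.16 (SE 0.47, adjusted p = 1.2e-07), from 7 reads to 376. SREBF1, which codes for an SREBP that favours fatty acid genes, rose by 2.47 (SE 0.74, adjusted p = 0.00566), though 2 of the 10 samples after EGA, 8C replicate 1 and 32C replicate 1, had no read. INSIG2, the paralog of INSIG1, fell by 2.07 (SE 0.62, adjusted p = 0.00586), and by 4.76 from 4C to 8C (SE 0.88, adjusted p = 0.000965). Its values were 15.0 to 78.8 before EGA, 0 and 4.59 at 8C, and 4.69 to 40.4 in the later samples, so that unlike INSIG1 its samples before and after EGA overlapped.

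SREBF2, which codes for the SREBP that favours cholesterol genes, had 6.46 to 12.0 before EGA, 0 to 8.87 from 8C to CM, and 40.6 and 42.8 at BL. Both blastocysts were above all other samples. The rise from CM to BL was 3.76 (SE 0.93, adjusted p = 0.031, limma with Benjamini-Hochberg adjustment) and passed in 17 of 25 alternatives, not in edgeR (adjusted p = 0.174), DESeq2 (0.0736) or with a pseudocount of 0.5 (0.0501), nor without CM replicate 2 (2.11, adjusted p = 0.355), either BL sample (0.111 and 0.195) or either 4C sample (0.0551 and 0.0502). Against 8C to CM it was 3.33 (SE 0.73, adjusted p = 0.00929), lost without BL replicate 1 (0.0808) or BL replicate 2 (0.144). SREBF2 was the 1 gene of the 17 with enough reads on the list that passed at BL, where 2.92% of all loci were higher than at CM and 6.81% higher than from 8C to CM, so the count is near the background. With no filter MBTPS2, the second protease that cuts SREBP, also passed against CM (log2 change 3.07, adjusted p = 0.0131) and against 8C to CM (3.37, adjusted p = 0.000793), and MVD, an enzyme of the mevalonate steps, against 8C to CM (2.01, adjusted p = 0.0496). MBTPS2 had 7.10 and 17.4 at BL and at most 1.11 from 8C to CM, with 23 reads in all samples together, and MVD had 9.13 and 3.17 at BL and at most 2.81 from 8C to CM, with 30 reads. Both were named after their values were seen. SCAP, the escort of SREBP, had 60 reads before and 31 after EGA and passed in no comparison where it had enough reads.

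Of the 3 uptake and storage genes tested across EGA, 1 was lower, 1 was higher and the remaining gene did not pass. NPC1, which exports cholesterol from lysosomes, fell by 2.53 (SE 0.57, adjusted p = 0.000507), and its partner NPC2 rose by 1.58 (SE 0.46, adjusted p = 0.00489).

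**Figure D3:**
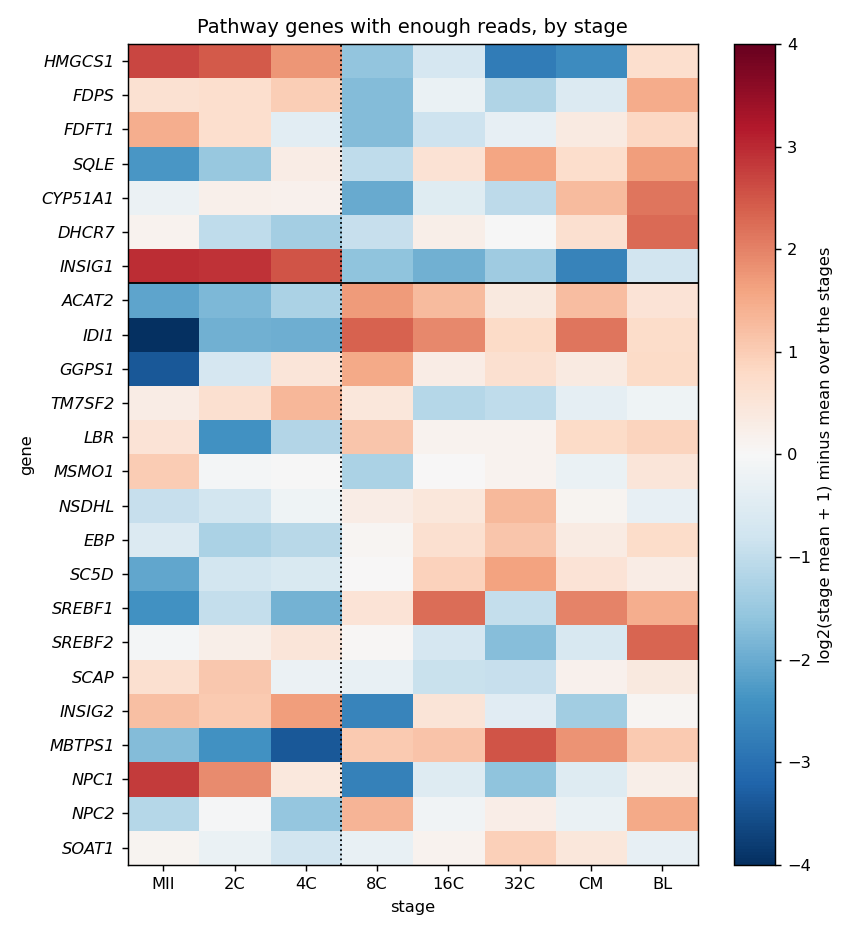
Stage means as log2(mean + 1) minus the mean over the 8 stages (colour scale in log2 units, from -4 to 4) for members above the line and the other pathway genes with enough reads below it, by stage on the x axis, with a dotted line at EGA. HMGCS1 and INSIG1 are red left of the dotted line and blue from 8C to CM, and at BL HMGCS1 is red and INSIG1 still blue. ACAT2, IDI1 and MBTPS1 are blue left and red right.

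Over the 16 samples, and among 9092 named loci, the profiles most like HMGCS1 were those of ANKRD46 (Pearson r = 0.97 on the log2 scale) and EPB41L5 (r = 0.96). INSIG1 was most like APH1B and LSM11 (both r = 0.96), FDPS like CCNJ (r = 0.93) and CSRP2 (r = 0.91), and FDFT1 like VDAC1 (r = 0.87) and RALGAPB (r = 0.86). SQLE was most like PRRC2B and TNRC18 (both r = 0.84), LSS like AKR1B1 (r = 0.86) and TTF2 (r = 0.85), CYP51A1 like ADD1 (r = 0.81) and SLC10A1 (r = 0.80), and DHCR7 like MAPK8IP3 (r = 0.85) and C24H18orf8 (r = 0.84). The points share stages and size factors, and the highest of many values is given, so these are descriptions only.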

How the data were processed

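Single bovine oocytes and embryos were profiled by RNA-Seq, 2 at each of 8 stages. Per the labels, RNA of each was isolated with TRIzol, amplified in 2 rounds and made into SOLiD libraries, and cutadapt, FastQC, TopHat, Cufflinks and HTSeq were used. The genome build, the strand setting and the treatment of reads with several matches are not given in the sources used here. The deposited signal is a read count per locus that the authors divided by a size factor. Dividing each value by the step of its sample gave whole reads (tolerance 0.01) for 100% of non-zero values, and each step equalled the reciprocal of a median-of-ratios size factor. All columns were mapped to samples.

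Loci with few recovered reads were removed with filterByExpr. limma 3.58.1 (R 4.3.3) with trend and empirical Bayes moderation was run on log2(value + 1), with Benjamini-Hochberg adjustment over all loci kept at 0.05, in a model of 8 stages and one of the 2 periods. As a count test on the recovered reads, edgeR 4.0.16 called 5978 loci for the stage effect and 4393 across EGA. DESeq2 1.42.0, scaling by TMM or by total reads, a pseudocount of 0.5 or 5, testing without the filter, the replicate number as a block and each sample left out were the other alternatives. The comparison of BL with 8C to CM, and the fit without 2C replicate 2 and 8C replicate 2, were added after seeing the data. Only the limma test was run on simulated data, with large changes across EGA. That check did not cover edgeR, DESeq2 or changes of genes with few reads.

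The members and lists were chosen with earlier results of these data known. Genes named beside the members were SREBF1, SREBF2 and SCAP, the 10 list genes with the largest change across EGA among those past the threshold, and the 2 loci most like each member. STARD4 of the list was not found by name, and some genes of the pathway are not reported here. Gene lengths and promoter sequences were not used here, so levels were not compared between genes and no promoter motif was searched.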

Additional observations from a re-analysis of the deposited data

Results flagged for a closer look

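A sample far from the others of its group was found in 2 of the 16 groups examined, which were the 8 members before and after EGA, where chance gives about 1 in 20 among like samples. These groups pool several stages, so that rate does not hold for them. LSS had 6.09 normalised reads in BL replicate 1, where the other samples after EGA had at most 2.74. DHCR7 had 22.2 normalised reads in BL replicate 2, where the next highest sample after EGA, BL replicate 1, had 10.1.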

How the results depend on the processing

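The calls of HMGCS1 and INSIG1 across EGA held under all 25 alternatives, with log2 changes between -3.99 and -3.21 and between -5.31 and -3.37. Counts over all loci moved by more than 1.5 times as follows, and the cause was not tested. With no filter, 7075 loci passed across EGA against 4619. From MII to 2C, 137 loci passed, with edgeR 44, DESeq2 381, total reads 551, without 2C replicate 2 and 8C replicate 2 together 53, and with 1 sample left out between 18 and 302. From 4C to 8C, 3560 loci passed, and 1935 to 3844 with 1 sample left out. From CM to BL, 427 passed, with edgeR 154, without both samples named above 650, and 132 to 670 with 1 sample left out. Against 8C to CM, 1045 passed at BL, and 234 to 1620 with 1 sample left out.

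The members that passed from 4C to 8C numbered 2 with edgeR and 2 to 4 with 1 sample left out, from CM to BL 0 to 1, and at BL against 8C to CM 0 to 4. The changes of FDFT1 from CM to BL (-0.64 to 1.20 over the alternatives) and of DHCR7 from 4C to 8C (-0.43 to 1.06), neither of which passed, turned sign with 1 sample left out, FDFT1 to -0.15 without CM replicate 2 and -0.64 without BL replicate 1, and DHCR7 to -0.11 without 4C replicate 1 and -0.43 without 8C replicate 1.

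Replicate numbers did not pair the samples: of 28 pairs of stages, 1 had a correlation of same-numbered deviations over 0.1 (range -0.26 to 0.13). With the replicate block 6381 loci passed for stage, 4579 across EGA, 3515 from 4C to 8C and 392 from CM to BL, and 7 members passed for stage, FDFT1 and DHCR7 included, while CYP51A1 did not pass from 4C to 8C (adjusted p = 0.0502). With 2 samples per stage, and at most 51 reads in all before EGA for LSS, CYP51A1, SQLE and DHCR7, small changes of these genes were not detectable.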
